A study of Mus musculus with 8 samples.

Results

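Gasdermins and their partners carry out lytic cell death, in which a cell dies by perforation of its own plasma membrane. The mRNAs of 10 such genes were followed in libraries labelled as extracellular vesicles (EVs) of mouse heart, after ischemia and reperfusion or sham surgery. The genes were taken by symbol: the pore formers Gsdmd, Gsdmc2 and Gsdmc4, the proteases Casp1, Casp4 and Casp8, the necroptosis pair Ripk3 and Mlkl, the sensor Nlrp6 and the cytokine Il18. Each symbol had 1 entry in the mRNA table, and they made up 10 of 22481 mRNA genes. All 10 had a mean of at least 0.5 FPKM (fragments per kilobase of transcript, scaled to library size) and were among the 12716 genes tested.

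RNA was sequenced from 8 male C57BL/6J mice aged 10 weeks, 4 in the sham group and 4 in the IR group, with 1 library per mouse. In IR mice the left anterior descending coronary artery was tied for 45 min and the ligature then removed for 24 h, and sham mice underwent surgery for comparison. EVs were recovered by ultracentrifugation after the left ventricle had been perfused and digested with collagenase, with no selection of a cell type. The libraries held 13824442 to 22497260 fragments of mRNA.

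The tissue label was checked against marker genes. Of the 10 cardiomyocyte markers, only 2 were abundant enough to be tested, and no fragment of Myl2, Mb, Nppa or Csrp3 was counted in any library. Their summed level was 4.80 to 10.8 FPKM in sham libraries and 4.05 to 5.59 FPKM in IR libraries, against 19511 to 24745 FPKM and 22136 to 33694 FPKM for 10 enterocyte markers. The defining markers of the labelled tissue are thus nearly absent, and the levels below are given for these libraries as labelled. Across all 12716 genes, edgeR's quasi-likelihood test with Benjamini-Hochberg adjustment called 0 genes (0% of those tested) at an adjusted p under 0.05 with a fold change over 2. It called 4 when sham 2 was left out, and 1237 genes (9.73%) had an unadjusted p under 0.05. DESeq2 called 40 (0.315%).

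Pyroptosis begins when a sensor such as NLRP6 assembles an inflammasome, which activates caspase-1, or when caspase-11, the mouse product of Casp4, binds bacterial lipopolysaccharide. Both caspases cut gasdermin D, whose freed end forms pores, and caspase-1 also matures interleukin-18. Necroptosis uses another pore: RIPK3 phosphorylates MLKL, which then moves to the membrane, while caspase-8 holds RIPK3 in check. In intestinal epithelium NLRP6 and interleukin-18 are known from the handling of microbes, and the Gsdmc copies of the mouse are known from the response to worms.

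Gsdmc2 and Gsdmc4 are neighbouring copies on chromosome 15, and their sequences are shown because they set how well the fragments can be assigned. In GENCODE M21 (GRCm38, the mm10 build) Gsdmc2 lies on the minus strand at chr15:63824346-63845177 and Gsdmc4 on the minus strand at chr15:63891264-63912297. The first 120 coding bases of both and of the copy between them, Gsdmc3, are given 5′ to 3′, with capitals at the 2 positions that differ among the 3 copies. They lie in the first coding exon, at chr15:63835824-63835943, chr15:63869178-63869297 and chr15:63902811-63902930.
Gsdmc2: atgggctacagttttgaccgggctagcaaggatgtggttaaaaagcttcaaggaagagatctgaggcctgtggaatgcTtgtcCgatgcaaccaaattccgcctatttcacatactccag
Gsdmc3: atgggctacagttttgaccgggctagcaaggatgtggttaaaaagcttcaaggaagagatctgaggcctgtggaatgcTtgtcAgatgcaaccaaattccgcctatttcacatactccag
Gsdmc4: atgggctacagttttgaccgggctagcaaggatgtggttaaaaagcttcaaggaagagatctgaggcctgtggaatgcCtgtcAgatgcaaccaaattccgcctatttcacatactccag
Over the whole coding sequence, Gsdmc2 was identical to Gsdmc3 at 97.1% of aligned bases and to Gsdmc4 at 93.7%, whereas Gsdmc4 and Gsdmd shared 55.0%. Of the 50-base stretches in the transcripts of Gsdmc2, 51.3% also occur in another gene, and of those of Gsdmc4, 39.0%. The deposited Gsdmc2 entry spans chr15:63817187-63889073, the same interval as the Gsdmc3 entry and one that covers both genes. The values of Gsdmc2 and Gsdmc4 are therefore uncertain, since fragments may have been split between the copies. Of the other 8 genes, only Casp8 shared such stretches (4.37%, with the gene model Gm20257).

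The abundance of the 10 mRNAs spanned from 166 FPKM for Gsdmd to 1.25 FPKM for Gsdmc2, as means over 8 libraries. Il18 (90.6 FPKM), Casp1 (73.9 FPKM), Nlrp6 (73.1 FPKM) and Casp8 (48.8 FPKM) followed Gsdmd. Casp4 (25.5 FPKM), Ripk3 (15.9 FPKM), Mlkl (10.4 FPKM) and Gsdmc4 (4.04 FPKM) were lower. Casp1 exceeded Nlrp6 in only 4 of 8 libraries, so the order of these 2 genes is not resolved. Il18 exceeded Casp1 in 7 of 8 libraries and Casp4 exceeded Ripk3 in 7 of 8, and every other neighbour in the order held its place in 8 of 8. The pyroptosis chain from Nlrp6 to Gsdmd was thus present at higher levels per length than the necroptosis pair in these libraries.

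**Figure D1:**
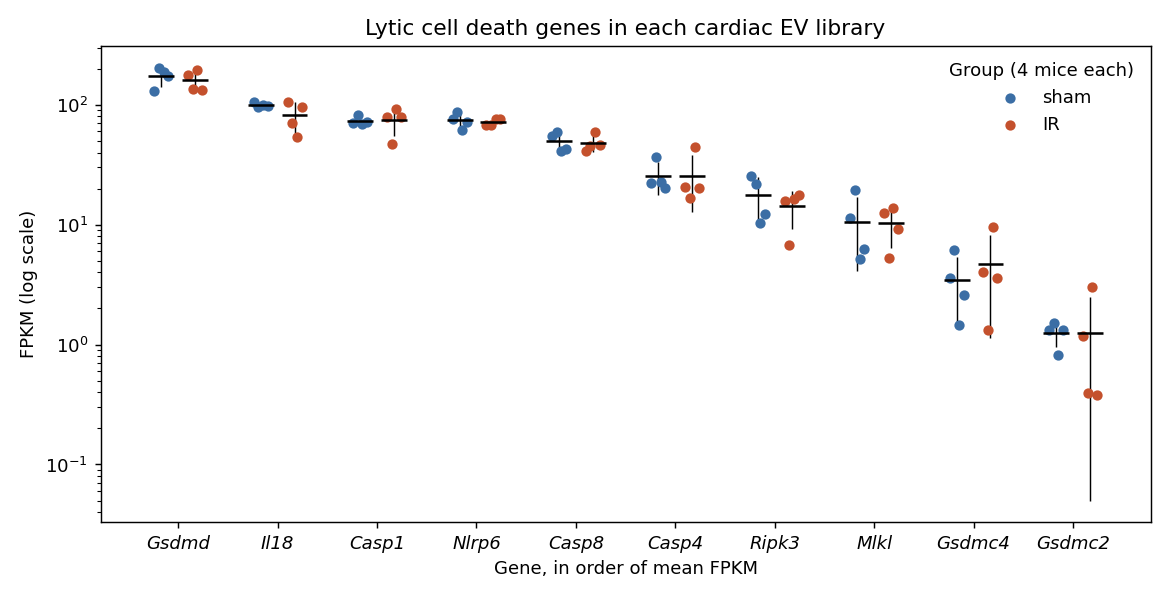
FPKM on a log scale of the 10 genes, in order of mean level, with 1 point per mouse (blue sham, red IR), a horizontal bar at the mean of each group and a vertical line for the SD (n = 4). The points of both groups overlap for every gene, and Gsdmc2 in IR has the widest scatter, from 0.379 to 3.04 FPKM.

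Gsdmd, on chromosome 15 at chr15:75862327-75867408 (plus strand), encodes the pore former cut by caspase-1 and caspase-11. Its level was 129, 202, 187 and 173 FPKM in sham 1 to 4 and 179, 136, 193 and 132 FPKM in IR 1 to 4. High and low libraries occurred in both groups, and the ranges overlapped over most of their length. The group means were 173 ± 31.4 FPKM in sham and 160 ± 30.5 FPKM in IR (SD, n = 4). The log2 fold change was −0.01 with an SE of 0.19 and an approximate 95% interval from −0.44 to 0.42 (adjusted p = 0.994, edgeR). Permuting the labels of the 8 mice (exact permutation test on log2(FPKM + 0.1), two-sided, smallest possible p 0.0286) gave p = 0.686.

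Gsdmc4 belongs to the gasdermin C copies, whose products share the pore-forming fold. Its level was 3.58, 6.10, 1.45 and 2.58 FPKM in sham 1 to 4 and 4.05, 1.33, 9.62 and 3.62 FPKM in IR 1 to 4. IR 3 was the highest of all 8 libraries, and IR 2 and sham 3 were the lowest, IR 2 in FPKM and sham 3 in log2 CPM (counts scaled to library size by TMM). The mean was 3.43 ± 1.98 FPKM in sham and 4.66 ± 3.52 FPKM in IR (SD, n = 4), and the log2 fold change was 0.57 (SE 0.56, interval −0.71 to 1.84, adjusted p = 0.757 by edgeR). Without IR 3 it was −0.09. The exact permutation p was 0.714. The libraries held 54 to 318 fragments of Gsdmc4, with exact Poisson 95% intervals of 40.6 to 70.5 for the lowest count and 284 to 355 for the highest, which cover counting error only.

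Gsdmc2 was at the limit of what these libraries resolve, with 12 to 100 fragments per library. Its level was 1.33, 1.51, 0.820 and 1.32 FPKM in sham 1 to 4 and 1.18, 0.395, 3.04 and 0.379 FPKM in IR 1 to 4. The IR group held both the highest library, IR 3, and the 2 lowest, IR 2 and IR 4. The sham mean was 1.24 ± 0.296 FPKM and the IR mean 1.25 ± 1.25 FPKM (SD, n = 4). In the edgeR fit, its log2 fold change was 0.12 (SE 0.61, interval −1.25 to 1.49, adjusted p = 0.962 by edgeR). It turned to −0.82 without IR 3 and to −0.02 without sham 3, and limma on log2(FPKM + 0.1) gave −0.42. Neither a 2-fold rise nor a 2-fold fall lies outside the edgeR interval. The exact permutation p was 0.571.

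Casp1, the protease of the inflammasome, lies on chromosome 9 next to Casp4, at chr9:5298517-5307265 (plus strand). Its level was 71.0, 82.0, 69.3 and 72.1 FPKM in sham 1 to 4 and 78.6, 47.4, 91.5 and 79.1 FPKM in IR 1 to 4. The sham libraries were close together, and IR 2 was below and IR 3 above all of them. The coefficient of variation was 7.79% in sham and 25.3% in IR. The fitted log2 fold change was 0.11 (SE 0.16, interval −0.25 to 0.46, adjusted p = 0.846 by edgeR), and an exact permutation test gave p = 0.943.

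Casp4 lies at chr9:5308828-5336783 on the plus strand, just downstream of Casp1. Its level was 22.2, 36.9, 22.5 and 20.2 FPKM in sham 1 to 4 and 20.8, 16.8, 44.2 and 20.0 FPKM in IR 1 to 4. In each group a single library stood above 3 that lay close together, sham 2 and IR 3. The means were nearly equal, 25.5 ± 7.71 FPKM in sham and 25.4 ± 12.6 FPKM in IR (SD, n = 4). The fitted log2 fold change was 0.07 (SE 0.31, interval −0.64 to 0.78, adjusted p = 0.958 by edgeR), and it became −0.32 without IR 3. By exact permutation p was 0.743.

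Casp8, which starts death receptor apoptosis and restrains necroptosis, lies at chr1:58795374-58847503 (plus strand). Its level was 55.1, 59.1, 41.6 and 43.2 FPKM in sham 1 to 4 and 41.4, 44.9, 59.2 and 46.3 FPKM in IR 1 to 4. The lowest and the highest values of both groups were nearly the same. Casp8 had a log2 fold change of 0.06 (SE 0.14, interval −0.24 to 0.37, adjusted p = 0.902 by edgeR), and an exact permutation test gave p = 0.886.

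Ripk3, the kinase of necroptosis, lies at chr14:55784995-55788865 (minus strand). Its level was 25.7, 21.9, 10.4 and 12.3 FPKM in sham 1 to 4 and 15.7, 6.78, 16.4 and 17.8 FPKM in IR 1 to 4. The sham libraries fell into a high pair and a low pair, and 3 of the IR libraries lay between them. The mean was 17.5 ± 7.40 FPKM in sham and 14.2 ± 5.02 FPKM in IR (SD, n = 4), with a log2 fold change of −0.20 (SE 0.32, interval −0.91 to 0.52, adjusted p = 0.860 by edgeR). By exact permutation p was 0.543.

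Mlkl, the target of RIPK3, lies at chr8:111311797-111338177 (minus strand). Its level was 11.3, 19.4, 5.19 and 6.30 FPKM in sham 1 to 4 and 12.6, 5.32, 13.9 and 9.28 FPKM in IR 1 to 4. Sham 2 was the highest library and sham 3 the lowest, with all IR libraries inside that range. The coefficient of variation was 61.3% in sham and 37.3% in IR. Mlkl had a log2 fold change of 0.09 (SE 0.41, interval −0.84 to 1.01, adjusted p = 0.960 by edgeR), and an exact permutation test gave p = 0.886.

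Nlrp6, the sensor, lies at chr7:140920902-140929192 (plus strand) and varied little between mice. Its level was 76.1, 87.0, 61.4 and 72.5 FPKM in sham 1 to 4 and 67.4, 67.5, 76.6 and 76.1 FPKM in IR 1 to 4. All IR libraries lay inside the sham range, and the highest library was 1.42 times the lowest, the smallest such ratio of the 10 genes beside 1.43 for Casp8. Nlrp6 had a log2 fold change of 0.06 (SE 0.11, interval −0.18 to 0.30, adjusted p = 0.871 by edgeR). By exact permutation p was 0.8.

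Il18, the cytokine that caspase-1 matures, lies at chr9:50554827-50581840 (plus strand). Its level was 105, 96.2, 98.8 and 98.3 FPKM in sham 1 to 4 and 106, 70.1, 53.9 and 96.6 FPKM in IR 1 to 4. IR 1 and IR 4 were at the sham level, whereas IR 2 and IR 3 were below every sham library. The coefficient of variation was 3.68% in sham and 29.2% in IR; the difference in spread was not tested. Il18 had a log2 fold change of −0.18 (SE 0.18, interval −0.58 to 0.21), with an adjusted p of 0.739 by edgeR, the smallest of the 10 genes. Without IR 3 the change was −0.0329, and without IR 1 it was −0.34. Exact permutation of the labels gave p = 0.286. In these bulk EV samples, fewer cells of a type, less RNA per cell, fewer EVs per cell and less RNA per EV cannot be told apart. This holds for Il18 and for the other genes.

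In the comparison of IR with sham, 0 of the 10 genes passed an adjusted p under 0.05 by edgeR, 0 had an unadjusted p under 0.05 (9.73% of all genes tested did) and 0 passed with DESeq2 or limma. The smallest unadjusted p was 0.321. In 0 of the 10 did the FPKM of the groups not overlap, against 5.25% of all genes (0.873% with every IR library above sham and 4.37% with every IR library below). The fitted change was positive for 7 genes and negative for 3, with a median log2 fold change of 0.07 against −0.00 for all genes. On the log2(FPKM + 0.1) scale, where the median of all genes was −0.10, the change was negative for 8 and below that median for 4. The signs of these small changes thus depend on the scaling. For 7 genes the interval lay within a 2-fold change either way, and for Mlkl, Gsdmc2 and Gsdmc4 it did not.

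**Figure D2:**
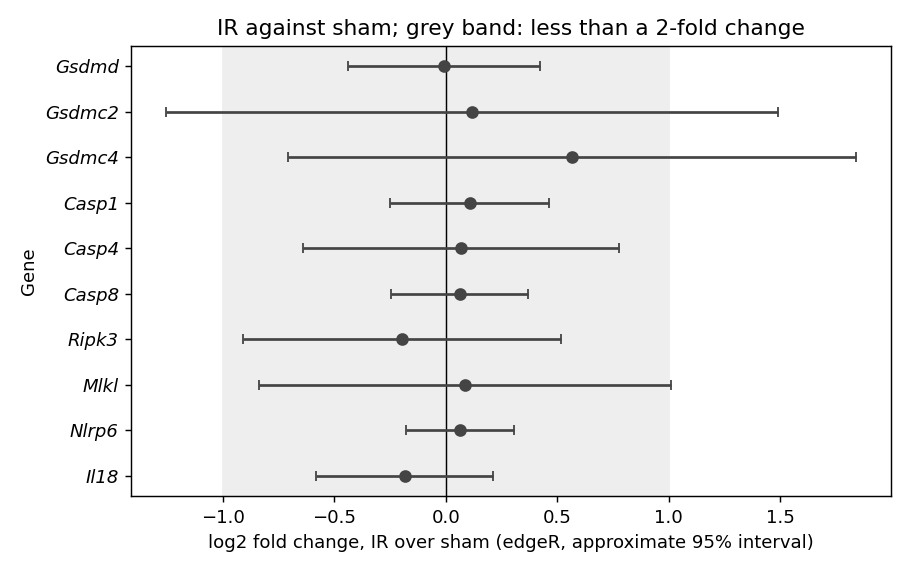
Log2 fold change of IR over sham for the 10 genes, as fitted by edgeR, with approximate 95% intervals and a grey band for changes of less than 2-fold. Every interval includes 0, and those of Mlkl, Gsdmc2 and Gsdmc4 leave the band.

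The 10 genes differed in how much they varied between mice. In log2 CPM, the SD over the 8 libraries of Gsdmc2 was at percentile 97.7 of all genes tested and that of Gsdmc4 at percentile 97.4. Mlkl (92.6), Ripk3 (87.4) and Casp4 (83.7) were also in the upper range of that distribution, and Nlrp6 (10.0) was in the lower. These percentiles were not adjusted for abundance, and counting error adds to the SD at low counts. Gsdmc2 had 12 to 100 fragments per library and Gsdmc4 54 to 318, with uncertain assignment between the copies. In log2 CPM, IR 3 was the highest library for 6 of the 10 genes and the lowest for 1, Il18. Sham 3 was the lowest for 4 genes. The median deviation from each gene's mean was 0.37 in IR 3 and 0.31 in sham 2, and −0.40 in IR 2 and −0.19 in sham 3.

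**Figure D3:**
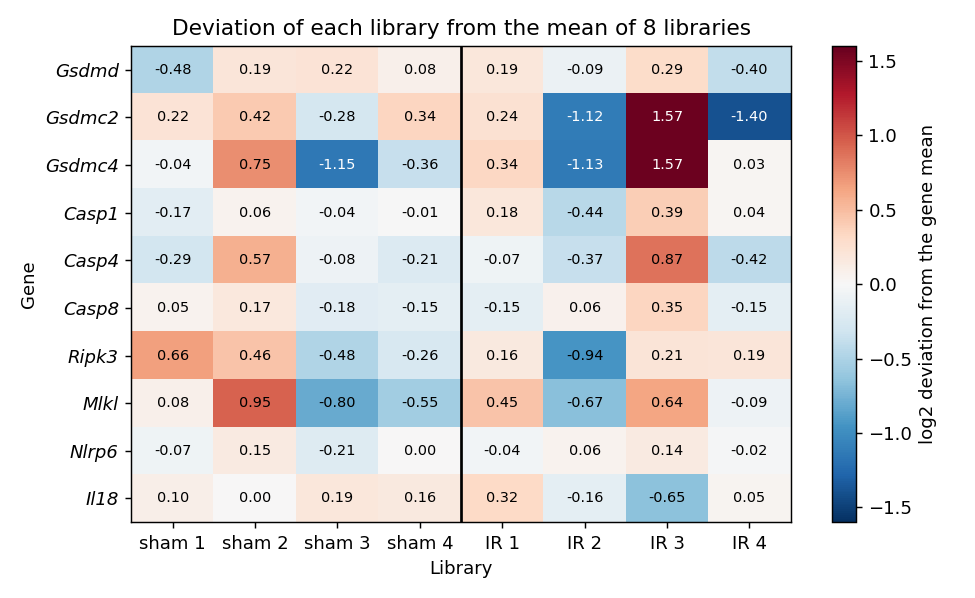
Deviation of each library from the gene's mean over 8 libraries, in log2 CPM, with red above and blue below the mean and a black line between the groups. IR 3 is above the mean for 9 genes and below it for Il18, and IR 2 is low for most genes.

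Markers of other cell types also varied between the libraries. Those of T and NK cells summed to 60.4, 220, 63.8 and 126 FPKM in sham 1 to 4 and 299, 126, 228 and 252 FPKM in IR 1 to 4. Within sham, sham 2 was thus the highest, while within IR the highest was IR 1 and not IR 3. Of the 9 T and NK cell markers tested, 6 were higher in IR at an unadjusted p under 0.05 by edgeR (4.87% of all genes were), with a median log2 fold change of 1.30. The adjusted p by DESeq2 was 0.0112 for Cd3g, 0.0127 for Klrd1 and 0.0392 for Cd8a, and above 0.05 for the other T and NK cell markers tested. Of the 10 enterocyte markers, 5 were higher at that p, with a median of 0.41. Macrophage and dendritic cell markers summed to 78.6 to 172 FPKM in sham and 85.1 to 187 FPKM in IR. The fitted change was positive for 8 of the 8 tested, with a median log2 fold change of 0.56. Of these, 1 was higher at an unadjusted p under 0.05 by edgeR. Paneth cell markers summed to 514, 2060, 1411 and 1806 FPKM in sham 1 to 4 and 800, 444, 2158 and 1273 FPKM in IR 1 to 4. The highest sums were in IR 3 and sham 2, and the lowest were in IR 2 and sham 1, not in sham 3. Neutrophil markers summed to at most 1.89 FPKM, and no fragment of Ly6g, Mpo or Elane was counted. B and plasma cell markers summed to 150 to 536 FPKM in sham and 320 to 537 FPKM in IR. Of the 5 tested, the fitted change was positive for 4 and negative for 1, with a median log2 fold change of 0.89. At an unadjusted p under 0.05 by edgeR, 1 was higher and 1 lower. Goblet cell markers summed to 3373 to 5456 FPKM in sham and 3654 to 5414 FPKM in IR. For fibroblast markers the sums were 99.5 to 139 and 66.9 to 146 FPKM, and for endothelial markers 26.0 to 36.1 and 18.5 to 34.6 FPKM. The part of these cells in the spread of the cell death genes was not tested.

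Among the 45 pairs of the 10 genes, Gsdmc4 and Mlkl varied most alike over the 8 libraries. Pearson's r of log2 CPM was 0.903 (exact permutation p = 0.00184, 0.0826 with Benjamini-Hochberg adjustment over the 45 pairs), and Spearman's rho was 0.952 (exact permutation p = 0.00114, adjusted 0.0513). Without the libraries farthest from the median of Gsdmc4, IR 3 and sham 3, r was 0.933. It ran from 0.870 to 0.948 with each library left out, and it was 0.905 with the group means removed. Of the 45 pairs, 36 had a positive r, and the median r of all 45 was 0.521. An unadjusted p under 0.05 was reached by 12 pairs and an adjusted p under 0.05 by 0. The share over all pairs of genes tested was not computed. Among 12715 other genes, Mlkl ranked 17 in likeness to Gsdmc4, and Gsdmc4 ranked 53 in likeness to Mlkl.

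**Figure D4:**
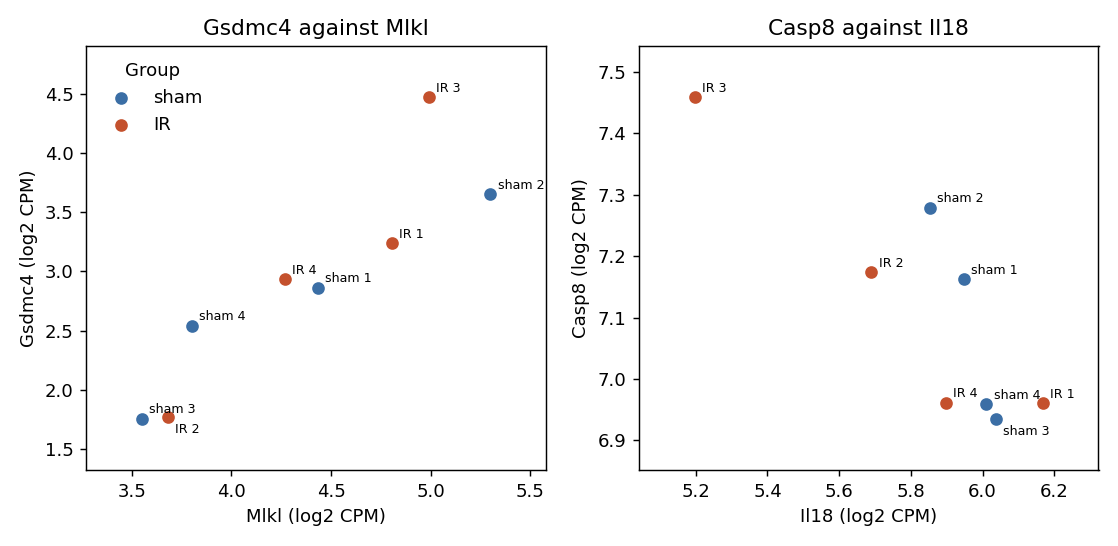
Log2 CPM of Gsdmc4 against Mlkl (left) and of Casp8 against Il18 (right), with 1 point per library, blue for sham and red for IR. In the left panel sham 3 and IR 2 lie at the lower left and sham 2 and IR 3 at the upper right, with the points of both groups interleaved.

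For 9 of the 10 genes the most similar mRNAs among the other 12715 were listed by Pearson's r over the 8 libraries, as a description. The genes of a library share its depth and cell content, and the part of these in the correlations was not tested. Mlkl was closest to the interferon-induced GTPase Irgm1 (0.992), then to Batf2 (0.976) and Slfn2 (0.973). Irgm1 stood at 74.1 FPKM in sham 2 and 51.4 FPKM in IR 3, and at 14.1 FPKM in sham 3 and 14.0 FPKM in IR 2. Casp1 was closest to the interleukin-1 receptor Il1r1 (0.936) and Casp8 to the clock gene Arntl (0.971). Ripk3 was closest to Naa20 (0.981), Casp4 to Armc8 (0.979), Gsdmc4 to Fam69a (0.980), Gsdmc2 to Zfp771 (0.962), Il18 to Ddit4 (0.957) and Nlrp6 to St6galnac6 (0.948).

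The other genes of these pathways were described by 7 lists with 86 genes in the table, of which 75 were tested. Of these, 0 were called by edgeR, and 3 were higher and 3 lower at an unadjusted p under 0.05, a share similar to the 4.87% and 4.86% of all genes. The higher ones were the guanylate binding protein Gbp8 (log2 fold change 0.72, unadjusted p = 0.0233 by edgeR), the ubiquitin ligase Birc2 (0.25) and the autophagy receptor of ferritin Ncoa4 (0.31). The lower ones were the gasdermin Gsdma2 (−1.53, unadjusted p = 0.0318 by edgeR), the mitochondrial phosphatase Pgam5 (−0.34) and the transferrin receptor Tfrc (−0.53). Gsdma2 had between 1 and 32 fragments per library. Without sham 1, the log2 fold change was −0.91 for Gsdma2 and −0.29 for Tfrc.

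Among the sensors and adaptors of inflammasomes, the adaptor Pycard was at 76.8 FPKM, the flagellin sensor component Naip6 at 62.2 FPKM and its partner Nlrc4 at 29.6 FPKM, as means over 8 libraries. By contrast, Nlrp3 was at 0.193 FPKM, and the cytokine Il1b was at 1.18 FPKM beside 90.6 FPKM for Il18. The 11 sensors and adaptors tested had a median log2 fold change of 0.14, which was 0.0839 without IR 3 and 0.00655 without IR 2, and 0.0347 on the log2(FPKM + 0.1) scale. For the 9 genes of cytokines and release the median was 0.15, and it was 0.0158 without IR 1, 0.0513 without sham 1, 0.25 without sham 3, 0.30 without sham 2 and 0.31 without IR 2. Guanylate binding proteins are known in mouse cells to help caspase-11 reach lipopolysaccharide. In the list of these proteins and interferon factors, the fitted change was positive for 12 of 12 genes, with a median log2 fold change of 0.35. This median depended on single libraries, as it was 0.15 without IR 1, 0.18 without sham 1, 0.19 without sham 3, 0.53 without IR 2 and 0.85 without sham 2, and 11 of 12 genes were positive without IR 1 or IR 3. Only Gbp8 among them had an unadjusted p under 0.05. The median log2 fold change of the 16 tested apoptosis genes was 0.10 (0.0604 without sham 1), that of the 7 ferroptosis genes 0.04 and that of the 18 genes of death receptors and necroptosis 0.06. On the log2(FPKM + 0.1) scale these medians were −0.00319, −0.0674 and −0.0706, so their signs depend on the scaling. The median of all genes on that scale was −0.10, below each of these. The ferroptosis median was also negative without sham 1, sham 2 or IR 2 (−0.0491, −0.0527 and −0.0653), 0.0161 without IR 3, 0.0684 without IR 4 and 0.11 without sham 3, and that of death receptors and necroptosis was −0.00416 without sham 1 and 0.0182 without IR 3. The 2 other gasdermins tested, Gsdma2 and Dfna5 (gasdermin E), had a median of −1.04, from −1.26 to −0.74 with each library left out. This is a median of 2 unlike values. Dfna5 was at −0.54 (interval −1.29 to 0.21, unadjusted p = 0.138 by edgeR), and Gsdma2 had the few fragments given above. Zbp1, a sensor that recruits RIPK3, was at 90.2 FPKM in sham 2, 78.4 FPKM in IR 3, 10.8 FPKM in sham 3 and 14.8 FPKM in IR 2, the same high and low libraries as Mlkl.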

How the data were processed

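The FPKM values were computed by the authors with Cuffdiff from paired-end reads of stranded, ribosomal RNA-depleted libraries (HiSeq 4000), trimmed with cutadapt (v1.9.3) and aligned to mm10 with HISAT2. The estimated counts deposited by the authors were taken to be Cuffdiff fragments multiplied by 1 factor per library. The value of 1 fragment (0.763 to 1.18) was read from the low values, and counts were divided by it and rounded. Of the mRNA values examined, 90.7 to 91.1% per library were whole multiples of it within 0.02. The annotation and the strand setting of the counting are not given in the sources used here. Emptied lines (1 per table) were left out, and 0 columns of single samples were unmapped.

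Genes with a mean of at least 0.5 FPKM were tested with edgeR 4.0.16 in R 4.3.3 (quasi-likelihood, TMM scaling, robust dispersions, two-sided), over all 8 libraries and without covariates. Called genes had an adjusted p under 0.05 (Benjamini-Hochberg) and a fold change over 2. SEs and 95% intervals are approximate. The pipeline was tested on simulated data. Alternatives were limma 3.58.1 on log2(FPKM + 0.1) and log2(FPKM + 1), DESeq2 1.42.0, median-ratio scaling, no filter, no fold criterion, unadjusted p, the replicate number as a block and each library left out. No lncRNA entry was paired with any of the 10 genes. The 10 genes, the gene lists and the markers were chosen with earlier results of these data known. Genes named were the 10, up to 3 tested genes with the smallest p in each pathway list, the 3 most similar genes to each of the 10, and defining markers; Pycard, Naip6, Nlrc4, Nlrp3, Il1b and Zbp1 were named after their values were seen. The genes most similar to Gsdmd are not reported here.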

Additional observations from a re-analysis of the deposited data

Results flagged for a closer look

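In Casp4, 1 library per group lay far from the other 3, by Dixon's criterion for 4 samples (gap to the nearest library divided by the range, above the 95% critical value). In the sham group it was sham 2, at 36.9 FPKM (ratio 0.860), and in the IR group IR 3, at 44.2 FPKM (ratio 0.853). Over the 10 genes 20 groups were examined, and chance marks about 1 in 20 groups.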

How the results depend on the processing

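The count of 0 genes called became 40 with DESeq2 and ran from 0 to 4 with each library left out, the 4 without sham 2. With p left unadjusted (under 0.05, fold over 2) it was 211 genes, of which 1 was on the pathway lists, Gsdma2. None of the 10 genes was called under any of these settings, but the sign of small changes moved, and the cause was not tested. On the log2(FPKM + 0.1) scale, where the median of all genes was −0.10, the log2 fold change was −0.42 for Gsdmc2, −0.0266 for Casp1, −0.0673 for Casp4, −0.0496 for Casp8 and −0.0378 for Nlrp6, and on the log2(FPKM + 1) scale −0.14, −0.0258, −0.063, −0.0488 and −0.0375. With each library left out, it ran from −0.14 to 0.11 for Gsdmd, −0.82 to 0.43 for Gsdmc2, −0.0869 to 0.97 for Gsdmc4, −0.0159 to 0.25 for Casp1, −0.32 to 0.30 for Casp4, −0.0555 to 0.13 for Casp8, −0.36 to 0.0158 for Ripk3 and −0.12 to 0.54 for Mlkl. It ran from −0.34 to −0.0329 for Il18 and from 0.0056 to 0.12 for Nlrp6, whose signs held with each library left out. Same-numbered libraries did not vary together (correlations −0.16, −0.32, 0.04 and 0.05, and no library correlated best with its own number). No pairing by number was thus seen, but such correlations cannot exclude that mice were handled in numbered pairs. With the replicate number as a block, Gsdmc2 was at −0.32 and no call changed. As each gene has 1 entry, testing entries alone gives the same values. The correlations on the FPKM scale and with group means removed were chosen after seeing the data. With 4 mice per group, the intervals do not lie within a 2-fold change for Mlkl, Gsdmc2 and Gsdmc4.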

Other observations

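Casp8 and Il18 varied in opposite directions over the 8 libraries in log2 CPM (counts scaled to library size), with r = −0.861 (exact permutation p = 0.00754, 0.156 after Benjamini-Hochberg adjustment over 45 pairs) and Spearman's rho = −0.881. Without IR 3 and sham 2, the libraries farthest from the median of Casp8, r was −0.692. On the log2(FPKM + 0.1) scale r was −0.405, so the relation depends on the scale.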
